A study of Mus musculus with 12 samples.

Results

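The genes described here move calcium between the cytosol and the sarcoplasmic reticulum of the muscle fiber. The 8 genes were chosen by name from the 27179 genes of the count data, with the comparison of *FRAIL1* against Control muscles already known, and all 8 were detected and passed the expression filter. They are the SERCA calcium pumps *Atp2a1*, *Atp2a2* and *Atp2a3*, the small pump inhibitors *Sln* (sarcolipin) and *Pln* (phospholamban), the calsequestrins *Casq1* and *Casq2*, and *Pvalb* (parvalbumin).

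Calcium released through the ryanodine receptor starts contraction, and the SERCA pumps end it by returning calcium to the sarcoplasmic reticulum at the cost of ATP. *Atp2a1* encodes SERCA1, the pump of fast fibers, *Atp2a2* encodes SERCA2, the pump of slow fibers and the heart, and *Atp2a3* encodes SERCA3, which is best known from nonmuscle cells. Sarcolipin and phospholamban are single-pass membrane peptides that bind the pump and reduce calcium uptake, and sarcolipin also lets the pump use ATP without moving calcium, which releases heat. Calsequestrin stores calcium in the lumen of the reticulum, with *Casq1* as the main form in fast fibers and *Casq2* as the form of slow fibers and the heart. Parvalbumin is a cytosolic calcium buffer that speeds the relaxation of fast fibers.

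The muscles came from 6 wild-type male C57BL/6N mice that were 6 to 8 weeks old on arrival and entered experiments within 2 weeks. In each mouse, 1 tibialis anterior (TA) muscle, a mainly fast muscle of the lower leg, was electroporated with 10 μg of empty pcDNA3 plasmid (Control) and the TA of the other leg with 10 μg of plasmid carrying full-length human *FRAIL1*, a long noncoding RNA, behind the CMV promoter (*FRAIL1*). Both were taken 7 days later for poly(A) RNA-seq. Both groups share the injection and electroporation, the CMV promoter is not specific to muscle fibers, and no muscle without transfection was analysed here. RNA came from whole muscle, so fewer cells of a type and less RNA per cell cannot be told apart. *FRAIL1* itself, a human transcript, is not among the mouse genes counted.

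Total counts per muscle ranged from 45018389 to 59309210 in the 6 Control muscles and from 44848322 to 60527385 in the 6 *FRAIL1* muscles. Of 15502 genes tested with edgeR's quasi-likelihood test, 974 passed an adjusted p of 0.05 (Benjamini-Hochberg), 687 higher and 287 lower in *FRAIL1* muscles. Scaling by total counts in place of TMM, edgeR's scaling factors, made this 2480 higher and 147 lower and moved the median log2 fold change of all genes from 0.0096 to 0.16. *FRAIL1* muscle 5 stood apart from the other muscles: on the first principal component, which held 32.4% of the variance, it lay at 59.5, whereas the next *FRAIL1* muscle lay at 25.8 and the Control muscles between -25.9 and -11.0. Results are therefore also given without the muscles of mouse 5. Checked against the TA label, 9 fast fiber genes summed to 113515 to 132774 CPM (counts scaled to library size) in Control muscles, against 145 to 250 CPM for the 8 slow fiber genes.

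In brief, 3 of the 8 genes had the higher level on the *FRAIL1* side in all 6 mice: *Sln*, 5.38-fold, *Casq2*, 2.02-fold, and *Atp2a2*, 1.86-fold. These 3 also passed the all-gene threshold of adjusted p 0.05, which 6.28% of all genes tested passed (4.43% as higher and 1.85% as lower), and the other 5 did not pass it. With the mouse as a block (the replicate block), *Casq2* did not pass in edgeR but passed in DESeq2, whereas *Sln* and *Atp2a2* passed in both. Since the genes were chosen with this comparison known, the count is a description and carries no test. For *Sln* and *Atp2a2* every *FRAIL1* muscle lay above every Control muscle, a pattern held by 3.12% of all genes tested. The shares of all genes with the same direction in all 6 mice, or with every *FRAIL1* muscle lower, are not given here. The fast fiber genes *Atp2a1* and *Pvalb* had log2 fold changes of -0.27 and -0.18, and *Casq1* of 0.03. The median log2 fold change was -0.07 over the 8 genes and 0.0096 over all genes tested.

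**Figure D1:**
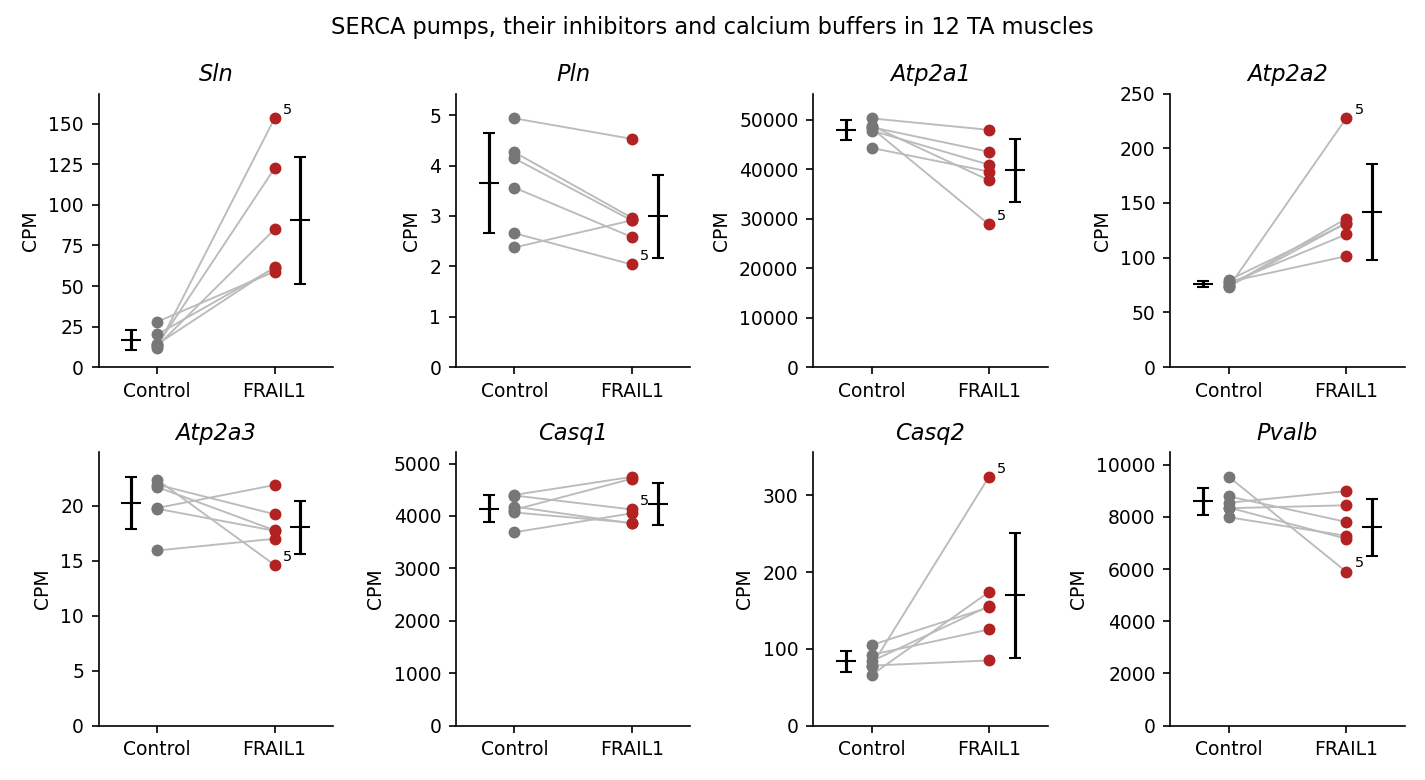
Levels of the 8 genes in CPM (y axis, linear, from 0) in the 6 Control (gray) and 6 *FRAIL1* (red) muscles. Gray lines join the muscles with the same number, black bars give the mean ± SD, and 5 marks *FRAIL1* muscle 5, which had the highest *Sln*, *Atp2a2* and *Casq2* and the lowest *Atp2a1* and *Pvalb* of the 12 muscles.

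RefSeq promoter sequences of build GRCm38.p6 were at hand for 6 of the 8 genes, *Pln*, *Atp2a1*, *Atp2a3*, *Casq1*, *Casq2* and *Pvalb*. The 200 bases before the start site are shown for the calsequestrin pair, whose members differed in response, and for *Atp2a1* and *Pvalb*, the abundant fast fiber genes that varied together. Each is written 5′ to 3′ on the strand of its gene. Capitals mark matches to CANNTG, the E-box read by myogenic factors such as MyoD, or to the MEF2 motif, both searched on both strands.
*Casq1*, chr1:172219896-172220095, minus strand: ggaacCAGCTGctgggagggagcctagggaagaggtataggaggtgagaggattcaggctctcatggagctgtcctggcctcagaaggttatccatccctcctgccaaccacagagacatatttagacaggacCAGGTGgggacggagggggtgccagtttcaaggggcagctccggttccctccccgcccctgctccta
*Casq2*, chr3:102086215-102086414, plus strand: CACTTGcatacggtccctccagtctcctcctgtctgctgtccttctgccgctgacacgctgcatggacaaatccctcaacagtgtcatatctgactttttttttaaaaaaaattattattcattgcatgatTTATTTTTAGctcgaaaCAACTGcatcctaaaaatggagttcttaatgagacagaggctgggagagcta
*Atp2a1*, chr7:126463074-126463273, minus strand: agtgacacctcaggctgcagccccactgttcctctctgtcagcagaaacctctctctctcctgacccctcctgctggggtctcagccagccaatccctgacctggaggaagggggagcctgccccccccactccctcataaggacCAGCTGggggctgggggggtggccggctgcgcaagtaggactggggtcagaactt
*Pvalb*, chr15:78206401-78206600, minus strand: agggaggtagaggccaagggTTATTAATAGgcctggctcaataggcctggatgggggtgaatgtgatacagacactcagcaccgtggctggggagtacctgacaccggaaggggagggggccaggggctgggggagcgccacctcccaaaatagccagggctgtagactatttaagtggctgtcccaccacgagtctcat
The *Casq2* window held a MEF2 match 69 bases before the start and E-box matches at 200 and 52 bases, whereas that of *Casq1* held E-box matches at 195 and 67 bases and no MEF2 match. *Atp2a1* had 1 E-box match at 55 bases, counted from a start site inside the gene interval given below, which ends at 126463103. Its window therefore overlaps that interval. The printed *Pvalb* window had a MEF2 match at 180 bases and no E-box match. RefSeq lists a second *Pvalb* start, whose window, chr15:78204238-78204437, held 1 E-box match at 111 bases and no MEF2 match. Windows of *Pln* and *Atp2a3*, which are not printed, held 1 and 0 E-box matches. Among 27025 mouse promoters, 57.9% held an E-box match and 2.35% a MEF2 match in a window of this length. These matches describe letters in the window and do not show that a factor binds there.

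*Sln* (Gene ID 66402, chromosome 9 of GRCm38 from 53850251 to 53853849, plus strand) had the largest difference of the 8 genes. Its level was 14.1, 13.5, 28.0, 20.2, 12.1 and 13.0 CPM in Control muscles 1 to 6. In *FRAIL1* muscles 1 to 6 it was 61.7, 122, 58.9, 61.1, 153 and 84.9 CPM. The groups did not overlap, and the lowest *FRAIL1* muscle, that of mouse 3, shared its mouse with the highest Control muscle. The means were 16.8 ± 6.17 and 90.4 ± 39.2 CPM (SD, n = 6 each), a log2 fold change of 2.43 (SE 0.31). Between the legs of a mouse the log2 ratio ranged from 1.07 in mouse 3 to 3.66 in mouse 5, with 3.18 in mouse 2. Without mouse 5 the log2 fold change was 2.13. Between 515 and 8197 counts per muscle stood behind these values.

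*Pln*, the other inhibitor, was scarce and did not share the difference of *Sln*. *Pln* (Gene ID 18821, chromosome 10 from 53337686 to 53345999, plus strand) had 3.56, 4.14, 4.26, 2.38, 2.66 and 4.94 CPM in Control muscles 1 to 6, and 2.58, 2.91, 2.96, 2.91, 2.04 and 4.53 CPM in *FRAIL1* muscles 1 to 6. The groups overlapped, and 5 of 6 mice had less of it on the *FRAIL1* side. The means were 3.66 ± 0.989 and 2.99 ± 0.831 CPM, with a log2 fold change of -0.29 (SE 0.20) from 109 to 232 counts per muscle. Genes on the opposite strand, *Cep85l* and *Gm47644*, overlap 64.7% of its exon bases, and since a strand setting of the counting was not given in the sources used here, reads of *Pln* and of these genes cannot be told apart. The ratio of *Sln* to *Pln* mRNA per kilobase of exon was 10.3 ± 4.63 (5.50 to 17.8) in Control and 70.0 ± 46.5 (39.2 to 157) in *FRAIL1* muscles, without overlap.

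Among the pumps, the slow form had the higher level in *FRAIL1* muscles, while the dominant fast form was lower in 6 of 6 mice. *Atp2a2* (Gene ID 11938, chromosome 5 from 122453513 to 122502225, minus strand) was nearly constant in Control muscles 1 to 6, at 73.7, 76.6, 77.9, 79.6, 73.3 and 74.1 CPM. In *FRAIL1* muscles 1 to 6 it was 132, 121, 101, 131, 227 and 136 CPM, so the groups were separate and muscle 5 was far above the rest. The means were 75.9 ± 2.58 and 141 ± 43.8 CPM (SD, n = 6 each), and the log2 fold change was 0.90 (SE 0.15), or 0.70 without mouse 5. The log2 ratio between legs was 0.38 in mouse 3, between 0.66 and 0.87 in mice 1, 2, 4 and 6, and 1.63 in mouse 5. A stretch of 362 bases of its transcripts is nearly identical to *Gm30970*, so a small share of its reads could have been lost or shared.

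*Atp2a1* (Gene ID 11937, chromosome 7 from 126445858 to 126463103, minus strand) had the most or the second most counts of all genes in each of the 12 muscles. It held 47828, 48509, 50293, 44320, 48316 and 48797 CPM in Control muscles 1 to 6, and 40929, 43537, 47971, 39540, 28857 and 37776 CPM in *FRAIL1* muscles 1 to 6. The *FRAIL1* muscle was lower in 6 of 6 mice, and 5 of the 6 lay below every Control muscle, with muscle 3 inside the Control range. The means were 48010 ± 1991 and 39768 ± 6417 CPM, with a log2 fold change of -0.27 (SE 0.10), -0.20 without mouse 5 and -0.14 when scaled by total counts. *Atp2a1* did not pass the threshold, but passed it in 5 of 23 alternative analyses, among them both DESeq2 fits and limma voom. On the opposite strand *Rabep2* overlaps 21.9% of its exon bases, and *Rabep2* was at 7.19 ± 1.03 CPM in Control muscles.

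*Atp2a3* (Gene ID 53313, chromosome 11 from 72961169 to 72993043, plus strand) was low, at 20.2 ± 2.38 CPM in Control and 18.0 ± 2.41 CPM in *FRAIL1* muscles (SD, n = 6 each). Its Control muscles ranged from 15.9 to 22.3 CPM and its *FRAIL1* muscles from 14.6 to 21.9 CPM, and the difference, a log2 fold change of -0.17 (SE 0.097), was within the spread between muscles.

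Levels of different genes were compared as CPM per kilobase of exon. In Control muscles *Atp2a1* led with 13808 ± 573, followed by *Pvalb* with 8254 ± 511 and *Casq1* with 2123 ± 134. Far below came *Casq2* with 30.7 ± 4.90, *Sln* with 12.8 ± 4.68 and *Atp2a2* with 12.5 ± 0.424, the last pair not differing beyond their spread. *Atp2a3* with 3.83 ± 0.451 and *Pln* with 1.32 ± 0.358 closed the order. In *FRAIL1* muscles *Sln* with 68.6 ± 29.7 and *Casq2* with 62.0 ± 29.9 did not differ beyond their spread, and both were above *Atp2a2* with 23.3 ± 7.21. The first 3 places were unchanged, with 11438 ± 1846 for *Atp2a1*, 7300 ± 1040 for *Pvalb* and 2166 ± 206 for *Casq1*.

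On this scale *Atp2a1* made up nearly all SERCA mRNA in both groups, 99.88 ± 0.0073% in Control and 99.75 ± 0.119% in *FRAIL1* muscles. The share of *Atp2a2* was 0.0904 ± 0.0061% (0.0866 to 0.103%) in Control and 0.218 ± 0.117% (0.121 to 0.448%) in *FRAIL1* muscles. These ranges did not overlap, and the share was higher in 6 of 6 mice, yet *Atp2a2* stayed below 1 in 100 SERCA mRNAs in each muscle. For each 100 SERCA mRNAs there were 0.0923 ± 0.033 *Sln* mRNAs in Control and 0.642 ± 0.399 in *FRAIL1* muscles. *FRAIL1* muscle 5 reached 1.39 and the other 5 lay between 0.323 and 0.741, all above the highest Control muscle, 0.146. Set against *Atp2a2* alone, *Sln* mRNA went from 102 ± 34.6 to 294 ± 92.6 for each 100, again without overlap. Because ratios within a muscle do not depend on how libraries were scaled, they show that *Sln* was higher relative to *Atp2a1* and also relative to *Atp2a2*. *Pln* was at 0.0095 ± 0.0024 and 0.0096 ± 0.0028 for each 100 SERCA mRNAs.

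**Figure D2:**
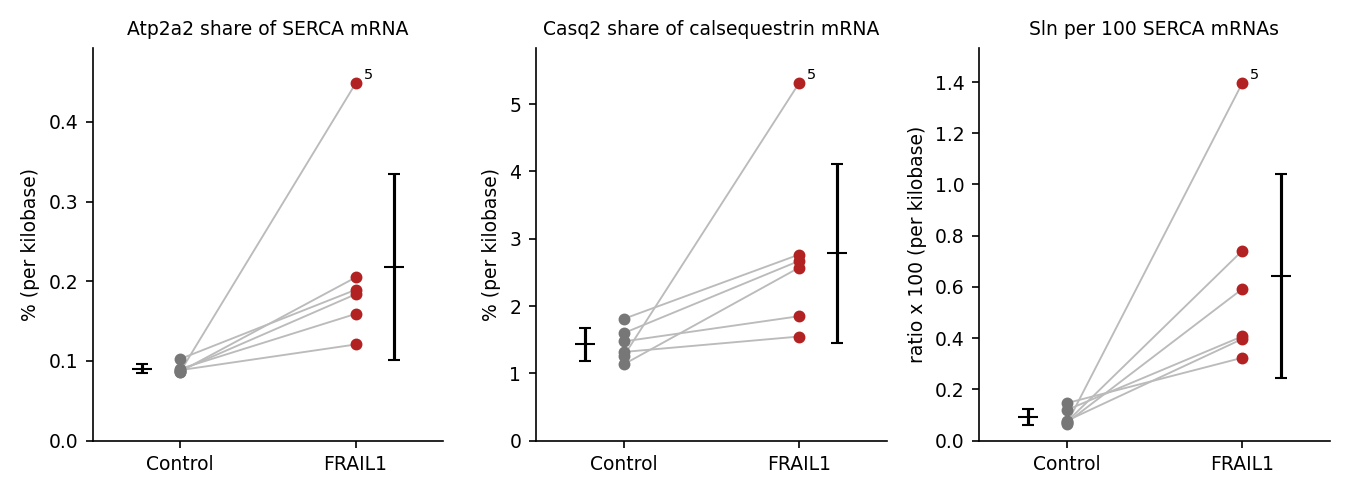
Share of *Atp2a2* in SERCA mRNA and of *Casq2* in calsequestrin mRNA (y axes in %), and *Sln* mRNAs for each 100 SERCA mRNAs, all from CPM per kilobase of exon, in Control (gray) and *FRAIL1* (red) muscles. Lines join muscles with the same number and black bars give the mean ± SD. Groups overlap only for *Casq2*, where *FRAIL1* muscle 2 at 1.55% lies inside the Control range.

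The calsequestrins differed from each other. *Casq2* (Gene ID 12373, chromosome 3 from 102086415 to 102146514, plus strand) had 66.1, 78.2, 92.3, 83.9, 78.1 and 105 CPM in Control muscles 1 to 6. In *FRAIL1* muscles 1 to 6 it had 174, 85.0, 125, 156, 324 and 154 CPM. The *FRAIL1* muscle was higher in 6 of 6 mice, but muscle 2 lay inside the Control range, and the log2 ratio between legs ran from 0.12 in mouse 2 to 2.05 in mouse 5. The means were 84.0 ± 13.4 and 170 ± 81.8 CPM (SD, n = 6 each), with a log2 fold change of 1.02 (SE 0.26) and of 0.70 without mouse 5. *Casq2* lost its place past the threshold in 13 of 23 alternatives, among them edgeR with the replicate block and edgeR without mouse 5. It kept its place in DESeq2 with and without the block.

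*Casq1* (Gene ID 12372, chromosome 1 from 172209894 to 172219895, minus strand) was much more abundant and nearly level. It held 4119, 4179, 4403, 3690, 4390 and 4067 CPM in Control muscles 1 to 6 and 4710, 3859, 4746, 4051, 4125 and 3870 CPM in *FRAIL1* muscles 1 to 6. In 3 of 6 mice the *FRAIL1* side was higher, and the means of 4141 ± 261 and 4227 ± 402 CPM differed by less than the spread between muscles. Its log2 fold change was 0.03 (SE 0.077), 0.17 when scaled by total counts, and slightly below 0 when Control muscle 4, *FRAIL1* muscle 1 or *FRAIL1* muscle 3 was left out, at -0.0020, -0.0057 and -0.0070. As a share of calsequestrin mRNA per kilobase, *Casq2* held 1.43 ± 0.247% in Control and 2.78 ± 1.33% in *FRAIL1* muscles and was higher in 6 of 6 mice.

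*Pvalb* (Gene ID 19293, chromosome 15 from 78191112 to 78206400, minus strand) was at 8335, 8789, 8546, 7988, 9536 and 8362 CPM in Control muscles 1 to 6. In *FRAIL1* muscles 1 to 6 it was at 8447, 7811, 8989, 7279, 5905 and 7165 CPM. Of the *FRAIL1* muscles, 4 lay below every Control muscle, while those of mice 1 and 3 were slightly above the Control muscle of the same mouse. The means were 8593 ± 532 and 7599 ± 1082 CPM, and the log2 fold change was -0.18 (SE 0.094), -0.085 without mouse 5 and -0.041 when scaled by total counts. For each 100 SERCA mRNAs there were 59.7 ± 3.36 *Pvalb* mRNAs in Control and 63.9 ± 3.65 in *FRAIL1* muscles.

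**Figure D3:**
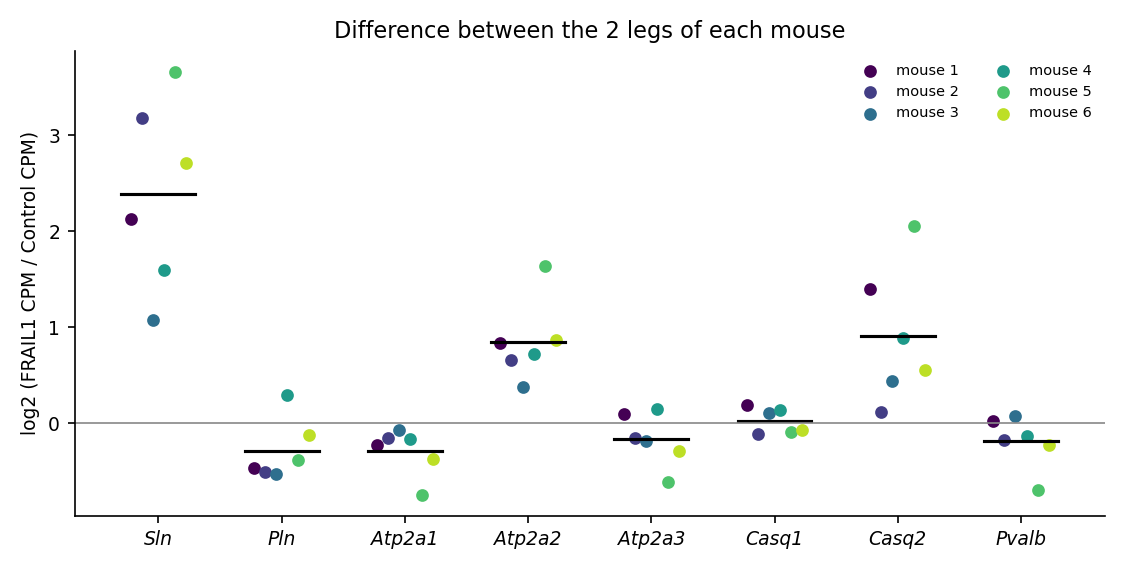
log2 ratio of *FRAIL1* to Control CPM between the legs of each mouse (y axis) for the 8 genes (x axis); points are mice, colored by number, and black lines are means over 6 mice. All 6 mice lie above 0 for *Sln*, *Atp2a2* and *Casq2* and below 0 for *Atp2a1*, and mouse 5 has the most extreme ratio for *Sln*, *Atp2a1*, *Atp2a2*, *Atp2a3*, *Casq2* and *Pvalb*.

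How the genes varied among muscles of 1 group was described with log2 CPM minus the group mean, over the 12 muscles. These correlations describe the muscles and carry no test, since both genes of a pair come from the same library and share its scaling. *Atp2a1* and *Atp2a2* mirrored each other (Pearson r = -0.96, and -0.90 without *FRAIL1* muscle 5), and *Atp2a1* and *Pvalb* varied together (r = 0.89 and 0.77). The spread was wider in *FRAIL1* muscles, with *Atp2a1* deviations from -0.45 to 0.29, against -0.11 to 0.068 in Control muscles. In Control muscles 1, 2 and 3 both pumps lay on the same side of the mean, and in 4, 5 and 6 on opposite sides. Values of r within the Control group alone are not given here. *Sln* was less related to *Atp2a2* (r = 0.61 and 0.35) and to *Casq2* (r = 0.27 and -0.22). *FRAIL1* muscle 5 was highest for all 3 genes, and *FRAIL1* muscle 2 was second for *Sln* but second lowest for *Atp2a2* and lowest for *Casq2* in its group.

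Of all genes tested, the 5 most like *Sln* in this measure were *Chrnd* (r = 0.936), *Setd5* (0.922), *Agfg1* (0.909), *Slc39a10* (0.905) and *Hdac6* (0.891). *Chrnd* encodes the delta subunit of the muscle acetylcholine receptor, and its r was 0.911 without *FRAIL1* muscle 5, with a Spearman rho of 0.951 over all 12. Most like *Pvalb* were *Tnnt3*, the fast troponin T (0.973), *Ckm*, muscle creatine kinase (0.950), *Tmod4* (0.947), *Mrps15* (0.945) and *Ddrgk1* (0.945). Those most like *Atp2a2* were the cell cycle kinase *Cdk2* (0.965), *Cul7* (0.963), the cyclin *Ccnd3* (0.950), *Cdk14* (0.947) and *Ywhab* (0.947). For *Cdk2* the Spearman rho was 0.629, and its r without *FRAIL1* muscle 5 was 0.889.

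**Figure D4:**
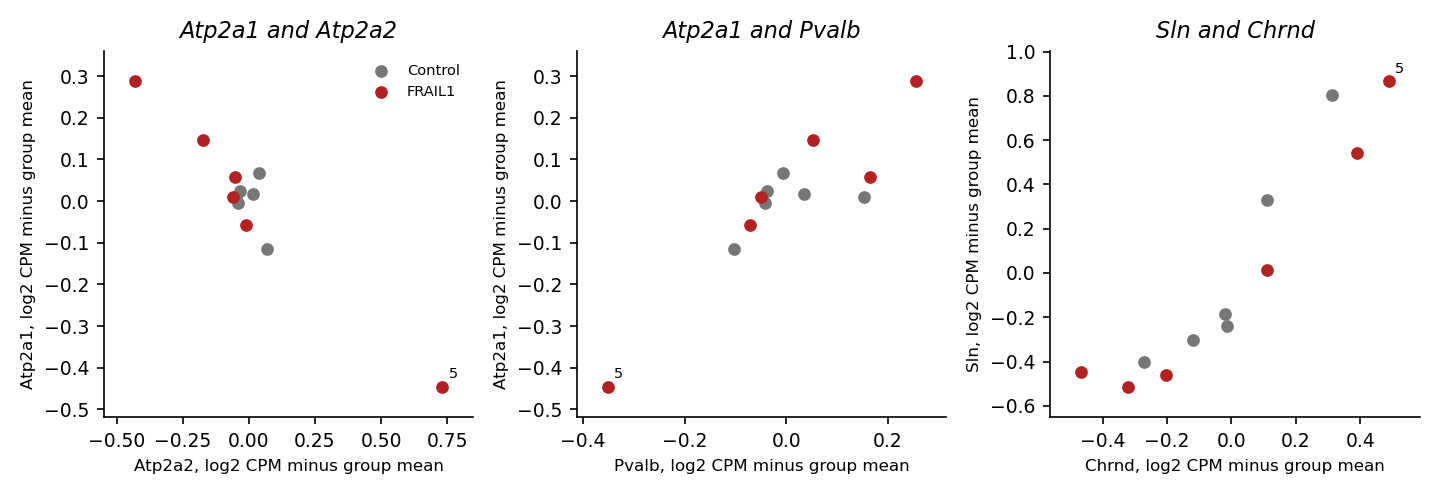
log2 CPM minus the group mean in Control (gray) and *FRAIL1* (red) muscles for *Atp2a1* against *Atp2a2*, *Atp2a1* against *Pvalb*, and *Sln* against *Chrnd*, 12 muscles each; 5 marks *FRAIL1* muscle 5. The first pair falls along a descending line (r = -0.96) and the others along rising lines (r = 0.89 and 0.936). *Atp2a1* spreads more widely in *FRAIL1* than in Control muscles.

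Other genes of calcium handling were taken from 7 lists, 68 genes in all, of which 65 were tested. With p adjusted over all genes tested in edgeR, 6 rose, 2 fell and 57 did not pass, and their median log2 fold change was -0.09. Of all 15502 genes, 4.43% rose and 1.85% fell in the same fit. With the mouse as a block 10 of the 65 rose and 13 fell, against 1159 and 1027 of all 15502 genes, and without mouse 5 there were 6 and 5, against 480 and 391 of 15525. None of the 6 genes of the reticulum lumen and its counter-ion channels passed, among them *Hrc*, *Srl*, *Calr* and *Tmem38a*, in the fit with or without the block.

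Of the micropeptides related to sarcolipin and phospholamban, *Mrln* (myoregulin) was at 26.3 ± 4.09 CPM in Control and 19.9 ± 3.99 CPM in *FRAIL1* muscles, lower in 6 of 6 mice but overlapping. Its log2 fold change was -0.40 (SE 0.14), with an adjusted p of 0.0819 in edgeR, or 0.0303 with the mouse as a block. *Smim6*, listed as endoregulin, was too low to be tested, and *Strit1* (DWORF, a micropeptide that activates the pump) was not analysed here.

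At the triad, where the surface membrane meets the reticulum, *Cacng1* rose and *Ryr1* fell. *Cacng1*, the gamma subunit of the muscle calcium channel, went from 239 ± 8.55 to 310 ± 18.2 CPM (log2 fold change 0.37, SE 0.057, adjusted p = 0.0032 by edgeR), without overlap. *Ryr1*, the release channel, was at 5150, 4535, 4604, 4521, 4414 and 4288 CPM in Control muscles 1 to 6 and at 3396, 4155, 4022, 3423, 2362 and 3155 CPM in *FRAIL1* muscles 1 to 6. No *FRAIL1* muscle reached the lowest Control muscle, and the log2 fold change was -0.42 (SE 0.11, adjusted p = 0.0415 by edgeR). *Fkbp1b*, a small binding partner of ryanodine receptors, rose from 0.575 ± 0.152 to 1.16 ± 0.187 CPM (adjusted p = 0.0186 by edgeR), higher in 6 of 6 mice. The other 11 of 14 triad genes did not pass, and with the mouse as a block the list had 2 higher and 5 lower.

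Beyond the triad, a channel gene and a kinase gene rose. *Orai2*, a store-operated calcium channel, rose from 4.73 ± 0.370 to 7.22 ± 1.41 CPM (adjusted p = 0.0124, edgeR) among 13 export and store-entry genes. *Camk2b*, a calcium/calmodulin-dependent kinase, rose from 190 ± 12.2 to 239 ± 32.3 CPM (adjusted p = 0.0297, edgeR) among 13 kinase and calcineurin genes. The groups were separate for both genes, and each was higher in 6 of 6 mice.

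Among 8 cytosolic calcium-binding genes tested, *Tnnc1*, the troponin C of slow fibers and the heart, rose from 5.02 ± 0.781 to 15.0 ± 7.42 CPM (log2 fold change 1.58, SE 0.30, adjusted p = 0.0145, edgeR). *Calm3*, which encodes calmodulin, fell from 499 ± 44.4 to 392 ± 58.2 CPM (log2 fold change -0.35, SE 0.098, adjusted p = 0.0470, edgeR). *Calm2*, which encodes the same protein, was at 154 ± 7.10 and 149 ± 9.66 CPM and did not pass. Without any 1 Control muscle, or without *FRAIL1* muscle 1, 4 or 6, *Ryr1* and *Calm3* did not pass, with log2 fold changes of -0.44 to -0.39 and -0.37 to -0.31.

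**Figure D5:**
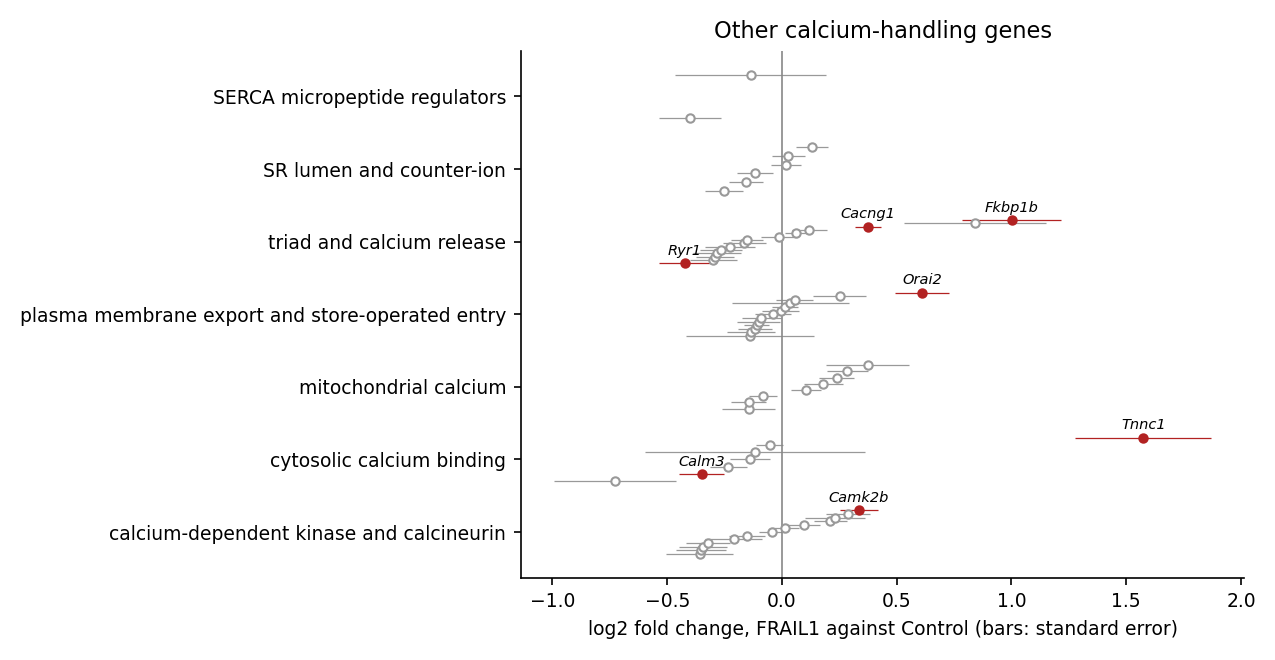
log2 fold change of *FRAIL1* against Control (x axis, bars ± SE) for 63 of the 65 other calcium-handling genes tested in 7 lists (y axis); filled red points passed an adjusted p of 0.05 and are named, open gray points did not. The 7 named genes lie at 0.34 or more or at -0.35 or less.

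Markers of fiber state and of other cells were read beside the 8 genes, and their part in the differences was not tested. The counts below stand against 4.43% of all genes that rose and 1.85% that fell. Slow fiber genes did not move as 1 group: of 8, the troponins *Tnni1* (21.7 ± 3.68 to 104 ± 64.8 CPM), *Tnnt1* (20.5 ± 2.85 to 69.7 ± 33.1 CPM) and *Tnnc1* rose, whereas *Myh7*, the slow myosin, was at 3.21 ± 1.18 and 4.22 ± 5.34 CPM and did not pass, nor did *Myl2*, *Myl3*, *Tpm3* or *Myh7b*. The list summed to 145 to 250 CPM in Control and 172 to 459 CPM in *FRAIL1* muscles. None of 9 fast fiber genes passed, although *Myh4* and *Actn3* fell with the mouse as a block (adjusted p = 0.0328 and 0.0472, edgeR), with sums of 113515 to 132774 and 87907 to 118691 CPM. Of 8 genes of regenerating or embryonic fibers 7 rose (8 with the block), among them *Myh3*, the embryonic myosin (50.9 ± 8.70 to 228 ± 161 CPM, adjusted p = 0.0124, edgeR), with sums of 197 to 255 and 398 to 1803 CPM. Of 10 genes of denervated fibers 5 rose, *Chrna1*, *Chrnd*, *Chrng*, *Myog* and *Ncam1*, with sums of 96.2 to 136 and 195 to 332 CPM. The last 2 lists share *Chrng* and *Myog*.

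*Atp2a2*, *Casq2*, *Sln* and *Pln* are also heart genes, and of 4 cardiac markers tested only *Tnnt2*, which embryonic skeletal muscle expresses too, rose (19.8 ± 3.08 to 61.5 ± 26.8 CPM), while *Myl7* had 0 counts in all 12 muscles. The 6 listed cardiac genes summed to 23.9 to 32.9 CPM in Control and 39.4 to 112 CPM in *FRAIL1* muscles. *Tnnt2* accounted for the higher sums, and the list did not rise as a group. *Myh6* and *Ryr2* were lower in 6 of 6 mice and *Tnni3* was higher in 4 of 6, and none of these passed. None of 4 smooth muscle genes passed, and their sums were 148 to 218 and 163 to 191 CPM. None of the 7 macrophage, 6 lymphocyte, 5 fibroblast or 3 Schwann cell genes tested passed, although 4 macrophage genes and 1 lymphocyte gene, *Cd4*, rose with the mouse as a block. Macrophage sums were 123 to 189 CPM in Control and 156 to 332 CPM in *FRAIL1* muscles, and fibroblast sums 485 to 894 and 890 to 2366 CPM. Most of the fibroblast difference was *Col1a1*, at 449 ± 96.6 and 927 ± 524 CPM. *Dcn* was level at 184 ± 34.9 and 186 ± 33.9 CPM. *Pdgfra* and *Lum* were higher in 6 of 6 mice and *Dpt* in 3 of 6. Lymphocyte sums were 4.80 to 10.7 and 4.93 to 11.4 CPM, and Schwann cell sums 56.7 to 108 and 42.2 to 74.6 CPM. Of 6 endothelial genes *Tek* fell (with the block *Kdr* too), with sums of 396 to 467 and 319 to 416 CPM, and of 5 general muscle fiber genes *Ckm* fell, with sums of 51705 to 63364 and 44776 to 56719 CPM.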

How the data were processed

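Poly(A) RNA of 12 TA muscles was sequenced on an Illumina NovaSeq as paired-end reads. The authors trimmed reads with Trimmomatic, mapped them to mm10 with RNA-star 2.7.8a, counted reads mapping uniquely to annotated genes with featureCounts 2.0.1 and deposited raw counts without normalization. NCBI Gene IDs of 25275 of 27179 genes had a GRCm38 symbol; IDs without one took 0.28% of counts. Libraries of a group all differed (lowest chi-square per degree of freedom 15.2).

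Genes were filtered with filterByExpr, scaled with TMM and tested in edgeR 4.0.16 (R 4.3.3, robust quasi-likelihood fit) over 15502 genes with Benjamini-Hochberg adjustment. The main fit held the group alone and no term for the mouse, so it did not use the pairing of the legs. The script was tested on simulated data with 200 changed genes. SE is the log2 fold change over the root of F. TMM factors were 0.935 to 0.983 in Control and 0.965 to 1.19 in *FRAIL1* muscles. Levels per kilobase used the union of GENCODE exons. Copies of the 8 transcripts were searched with BLAST 2.17.0 (98% identity over 100 bases).

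Each mouse gave both muscles, and the numbers of the labels were taken to mark the mouse, which the labels do not state. Deviations from the group means correlated at 0.254, 0.162, 0.282, 0.263, 0.0547 and 0.185 within numbers 1 to 6 and at -0.0400 on average between numbers. Deviations sum to 0 in each group, so the average between numbers largely follows from the values within numbers and is no separate check.

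The genes and lists were chosen with earlier results of these data known. All 8 genes are named, as are calcium genes past the threshold, *Calm2*, *Calm3*, *Ryr1*, *Mrln* and *Strit1*, the 5 genes most like *Sln*, *Pvalb* and *Atp2a2*, and markers past the threshold; other markers were named by hand after their values were seen. Some listed genes count in the totals and are not reported here by name. Alternatives tried were a block for the mouse, DESeq2 1.42.0, limma voom 3.58.1, other scalings and filters and left-out muscles. Leaving out mouse 5 and scaling by total counts were added after seeing the data. P-values measure the spread between 6 muscles a group, and counting error bears mainly on genes with few counts, such as *Fkbp1b* and *Pln*.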

Additional observations from a re-analysis of the deposited data

Results flagged for a closer look

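Of 34 groups of 6 muscles examined (CPM of the 8 genes and 9 ratios between them), 9 held a muscle far from the other 5 by Dixon's test, which flags about 1 in 20 groups by chance, and the groups are not independent of each other. *FRAIL1* muscle 5 accounted for 5 of them, with 227 CPM of *Atp2a2*, 324 CPM of *Casq2*, an *Atp2a2* share of 0.448% and an *Atp2a1* share of 99.52% of SERCA mRNA, and a *Casq2* share of 5.31% of calsequestrin mRNA. The same muscle was the extreme one on the first principal component and had the largest TMM factor, 1.19. *FRAIL1* muscle 6 had 4.53 CPM of *Pln*, or 0.0151 *Pln* mRNAs for each 100 SERCA mRNAs, and Control muscle 6 had the highest *Pln* of the Control muscles, 4.94 CPM. Control muscle 4 had an *Atp2a2* share of 0.103% and an *Atp2a1* share of 99.87% of SERCA mRNA.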

How the results depend on the processing

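*Sln* and *Atp2a2* kept their direction and their place past the threshold in 23 of 23 alternatives, with log2 fold changes of 2.13 to 2.63 and 0.69 to 1.07. *Casq2* kept its direction, at 0.68 to 1.20, and passed in 10 of 23. Of the 12 analyses without 1 muscle it passed only without *FRAIL1* muscle 2, 3 or 5, where 1579, 2110 and 969 of all genes passed. In the others 364 to 601 of all genes passed, and the log2 fold change of *Casq2* was 0.95 to 1.09. *Pln*, *Atp2a1*, *Atp2a3* and *Pvalb* kept a negative sign in all 23. Scaling by total counts moved the log2 fold change of *Casq1* to 0.17. The number of genes past the threshold, 974, was 2186 with the replicate block, 2211 with DESeq2, 2875 with DESeq2 and the block, 1836 with limma voom, 2627 with total counts, 2305 without mouse 5 and with the block, and 364 to 2110 without 1 muscle. The 8 other calcium genes past it became 23 with the block (10 higher, 13 lower), 19 with DESeq2 (12 lower), 29 with DESeq2 and the block (11 higher, 18 lower), 19 with limma voom (12 lower), 16 with total counts (15 higher, 1 lower) and 26 without mouse 5 and with the block (10 higher, 16 lower). Without mouse 5 and without the block 5 were lower, against 391 of all genes tested. Of all genes, 939 were lower with DESeq2, 1399 with DESeq2 and the block, and 842 with limma voom. Without mouse 5 and with the block 1212 of all genes were lower. Without 1 muscle there were 5 to 22 calcium genes past it, with 5 to 10 higher and 0 to 12 lower. There were 0 lower without any 1 Control muscle or without *FRAIL1* muscle 1, 4 or 6, where 50 to 124 of all genes were lower. Without *FRAIL1* muscle 2, 3 and 5 there were 8, 12 and 5 lower, against 646, 882 and 393 of all genes. *Camk2b* did not pass without Control muscle 1, 2, 3, 4 or 5 or *FRAIL1* muscle 1 (log2 fold change 0.32 to 0.33), and *Calm3* neither without mouse 5 (-0.26) nor with total counts (-0.21). With the length of the longest transcript in place of the union of exons, the Control share of SERCA mRNA was 99.8713% for *Atp2a1*, 0.0969% for *Atp2a2* and 0.0318% for *Atp2a3*, the *FRAIL1* share of *Atp2a3* was 0.0345%, and *Pvalb* had 63.6 and 68.1 mRNAs for each 100 SERCA mRNAs in Control and *FRAIL1* muscles. The cause of these shifts was not tested. Protein, pump activity and fiber-level expression were not analysed here, and an mRNA ratio is not a ratio of peptides to pumps.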

Other observations

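Within the *FRAIL1* group, the order of muscles by *Sln* was compared with that by *Atp2a2* and *Casq2*, a comparison chosen after the values were seen. *FRAIL1* muscle 5 was highest for all 3 genes, and apart from muscle 2 the order by *Atp2a2* was the same as by *Sln*. *FRAIL1* muscle 2 had the second highest *Sln*, 122 CPM, and the second highest *Chrnd* and *Chrna1*, 19.9 and 98.1 CPM, but the second lowest *Atp2a2*, 121 CPM, the lowest *Casq2*, 85.0 CPM, the lowest *Tnni1*, 41.8 CPM, and the lowest *Tnnc1*, 6.27 CPM. *FRAIL1* muscle 1 had the second highest *Casq2*, 174 CPM, and *Tnni1*, 117 CPM, with 61.7 CPM of *Sln* and the lowest *Chrnd*, 11.0 CPM.

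Over the 12 muscles, log2 CPM minus the group mean of *Sln* correlated with that of the acetylcholine receptor subunits *Chrnd* and *Chrna1* at r = 0.94 and 0.74, and with embryonic myosin *Myh3* and slow troponin I *Tnni1* at 0.31 and 0.17. *Casq2* showed the opposite order, with 0.16 and 0.12 for *Chrnd* and *Chrna1* and 0.80 and 0.86 for *Myh3* and *Tnni1*. For *Atp2a2* the values were 0.58, 0.65, 0.90 and 0.83, and *Atp2a1* ran against *Myh3* at r = -0.95. By rank the picture for *Atp2a2* differed, with Spearman rho of 0.62, 0.42, 0.49 and 0.36 for *Chrnd*, *Chrna1*, *Myh3* and *Tnni1*. In the same order rho was 0.95, 0.78, 0.21 and -0.02 for *Sln* and 0.11, -0.18, 0.31 and 0.61 for *Casq2*. It was -0.87 for *Atp2a1* with *Myh3*. Without *FRAIL1* muscle 5, *Sln* was at 0.91 with *Chrnd* and -0.20 with *Myh3*, *Casq2* at -0.37 and 0.55, *Atp2a2* at 0.31 and 0.75, and *Atp2a1* at -0.17 and -0.87. *Chrnd* had the highest r with *Sln* of all genes tested, so its value here is the extreme of many and no separate result. *Chrng*, the fetal receptor subunit, was at 0.17 with *Sln*, or -0.016 without *FRAIL1* muscle 5. The muscles share library, scaling and RNA composition across each pair, the difference between these correlations was not tested, and they are given as a description.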
